A study of Mus musculus with 22 samples.

Results

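Neuronal immediate-early genes are switched on within minutes of a stimulus from factors that are already present in the cell. Here they were 10 genes, Fos, Fosb, Fosl2, Junb, Egr1, Arc, Npas4, Nr4a1, Nr4a2 and Nr4a3, taken by symbol from a table of read counts that holds 56748 genes. All 10 passed the filter on low counts and were among the 20026 genes tested. They were measured by RNA sequencing in the whole brains of 22 male C57BL/6J mice.

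At an age of 10 weeks the mice received daily injections for 10 days. Exposed mice were given permethrin, a pyrethroid insecticide, at 200 mg/kg and pyridostigmine bromide, a cholinesterase inhibitor, at 0.7 mg/kg. Control mice were given vehicle. All mice were then aged to 17.5 months. Cannabidiol (CBD), a plant cannabinoid, was injected at 30 mg/kg in 5% Tween 80 in PBS on each of 28 days and then every 2 days for 2 weeks, and the other mice received its vehicle. On the morning after the last dose mice received 0.33 mg/kg of bacterial lipopolysaccharide (LPS), a trigger of innate immunity, or PBS, and brains were taken under isoflurane after 24 hours. The 6 groups were unexposed mice with vehicle and PBS (CtrlVeh, n = 3) or LPS (CtrlVehLPS, n = 3), exposed mice with vehicle and PBS (GWVeh, n = 4) or LPS (GWVehLPS, n = 4), and exposed mice with CBD and PBS (GWCBD30, n = 4) or LPS (GWCBD30LPS, n = 4). No group of unexposed mice received CBD. The labels name no shared cage, day or extraction, and the p-values measure the spread between these libraries.

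As background, synaptic calcium and cyclic AMP activate kinases that phosphorylate CREB and ternary complex factors, which then drive the immediate-early genes from cyclic AMP response elements and serum response elements. Fos, Fosb, Fosl2 and Junb encode subunits of the AP-1 transcription factor, Egr1 a zinc finger transcription factor, Npas4 a calcium-dependent factor of neurons, and Nr4a1, Nr4a2 and Nr4a3 orphan nuclear receptors that need no ligand. Arc is the effector of the set, a capsid-like protein that promotes the endocytosis of AMPA receptors at synapses. Their RNAs are short-lived, and in brain they are widely used as markers of recent neuronal activity.

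Library totals ran from 17.2 to 31.2 M counts. Even Fosb, which had the smallest counts of the set, was covered by at least 223 counts in every library, and Egr1 by 2842 to 5639. Of 9 microglial marker genes, 8 were higher with LPS over the 3 arms. The library CtrlVehLPS replicate 1 stood apart: its 9 cerebellar neuron markers summed to 53.2 CPM (the deposited counts scaled by library size with TMM factors) against 754.5 to 1343 CPM in the other 21 libraries, and its pancreatic enzyme genes to 388.9 CPM, and the main comparisons it enters are also given without it. Olfactory bulb markers summed to 163 to 297 CPM in CtrlVehLPS and to 112 to 124 CPM in CtrlVeh. In whole-brain RNA, fewer cells of a type and less RNA per cell cannot be told apart.

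The promoter sequences are shown for the response elements named above. RefSeq promoter entries (GRCm38.p6) matched 9 of the 10 genes, and for 8 of them the 250 bases before the start were searched on both strands for fixed motifs. The core of the cyclic AMP response element, TGACG, was found in 7 of these 8 windows, the exception being Fosl2, and in 17.8% of the 32851 promoter windows of that length. Nr4a1, Nr4a2 and Nr4a3 held 4 each, Fos and Npas4 held 2 each, and Fosb and Junb held 1 each. The sequences below are those of Fos, Junb and the 3 Nr4a genes, shown because they hold the cores at different spacings, 5′ to 3′ along the gene's own strand, with each core in capitals on whichever strand it lies (TGACG or its complement CGTCA). The stretch of Nr4a3 stops at the first annotated exon and shows 3 of its 4 cores.
Fos, chr12:85473640-85473889, plus strand: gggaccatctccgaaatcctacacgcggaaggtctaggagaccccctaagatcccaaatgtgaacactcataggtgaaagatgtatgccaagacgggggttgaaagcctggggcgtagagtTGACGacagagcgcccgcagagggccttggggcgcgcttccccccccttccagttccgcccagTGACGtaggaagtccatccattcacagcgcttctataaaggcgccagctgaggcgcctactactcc
Junb, chr8:84978749-84978998, minus strand: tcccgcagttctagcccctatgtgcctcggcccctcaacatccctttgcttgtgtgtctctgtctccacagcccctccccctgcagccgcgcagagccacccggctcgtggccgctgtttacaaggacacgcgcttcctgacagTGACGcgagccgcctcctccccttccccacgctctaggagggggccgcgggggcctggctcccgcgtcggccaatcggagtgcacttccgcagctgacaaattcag
Nr4a1, chr15:101266596-101266845, plus strand: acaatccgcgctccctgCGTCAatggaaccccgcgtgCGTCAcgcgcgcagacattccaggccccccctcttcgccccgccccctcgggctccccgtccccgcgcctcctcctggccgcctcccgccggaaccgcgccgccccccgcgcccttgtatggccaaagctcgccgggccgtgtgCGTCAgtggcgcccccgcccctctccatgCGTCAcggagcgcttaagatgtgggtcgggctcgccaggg
Nr4a2, chr2:57124004-57124253, minus strand: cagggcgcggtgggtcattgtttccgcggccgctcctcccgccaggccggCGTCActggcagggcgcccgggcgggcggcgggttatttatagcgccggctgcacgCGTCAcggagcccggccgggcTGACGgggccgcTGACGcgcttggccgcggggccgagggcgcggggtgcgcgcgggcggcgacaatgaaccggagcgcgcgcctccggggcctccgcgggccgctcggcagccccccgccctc
Nr4a3, chr4:48045055-48045152, plus strand, the 98 bases before the first annotated exon base: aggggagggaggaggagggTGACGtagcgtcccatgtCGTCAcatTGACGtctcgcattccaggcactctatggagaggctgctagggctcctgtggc

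In Fos the core nearest to the start began 66 bases before it, in Junb 106 bases, and in Nr4a1 the 4 cores began 233, 213, 69 and 40 bases before the start. A TATAAA element lay in the Fos window, beginning 33 bases before the start. In the Nr4a2 window these letters lay on the opposite strand, 164 to 159 bases before the start, within the MEF2 site given below. TATAAA was found in 12.4% of all windows. The EGR site GCGNGGGCG, which Egr1 and its relatives bind, was found in 4 of the 8 windows (Fosb, Fosl2, Nr4a1 and Nr4a2) and in 4.7% of all windows. The MEF2 site was found in Nr4a2 alone of the 8 and in 2.92% of all windows. No window of the 8 held the full element TGACGTCA, which contains the core on both strands (1.55% of all windows), the CArG box of the serum response element (1.47%), the AP-1 site TGANTCA (6.75%) or the Nr4a binding site AAAGGTCA (1.34%). Sequence farther upstream was not searched, so these absences hold for the windows alone and do not show that a gene lacks the element. These are matches of letters, the G and C content of the windows (58.4% to 80%) was not matched to that of other genes, and no binding was measured. The windows of Fosl2 and Npas4 lie wholly within annotated exons and are not printed, and Arc had no entry. The Nr4a1 window lies before a RefSeq start inside the annotated gene (chr15:101254269-101274795), outside its exons.

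Per kilobase of exon, Arc (41.9 CPM per kb, mean over 22 libraries) and Egr1 (39.7) were the most abundant members, followed by Nr4a1 (24.3), Junb (21.5) and Fos (12.6). Nr4a2 (8.50), Nr4a3 (4.80), Npas4 (4.68), Fosl2 (3.41) and Fosb (2.30) were lower. The members varied more between mice of the same group than most genes of like abundance. For Fos the SD within groups was 0.409 on the log2 scale, against a median of 0.120 over the 1000 genes nearest in mean level, of which 99.2% varied less. For Arc it was 0.247 (98.9% of the nearest genes varied less), for Npas4 0.289 (98.3%) and for Nr4a1 0.201 (97.6%). Fosb was the least set apart in this way, with 0.194 (81.2%), then Nr4a2 with 0.156 (86.6%) and Fosl2 with 0.169 (90.1%). A difference of a given size is therefore harder to detect in Fos than in Fosl2 or Nr4a2.

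**Figure D1:**
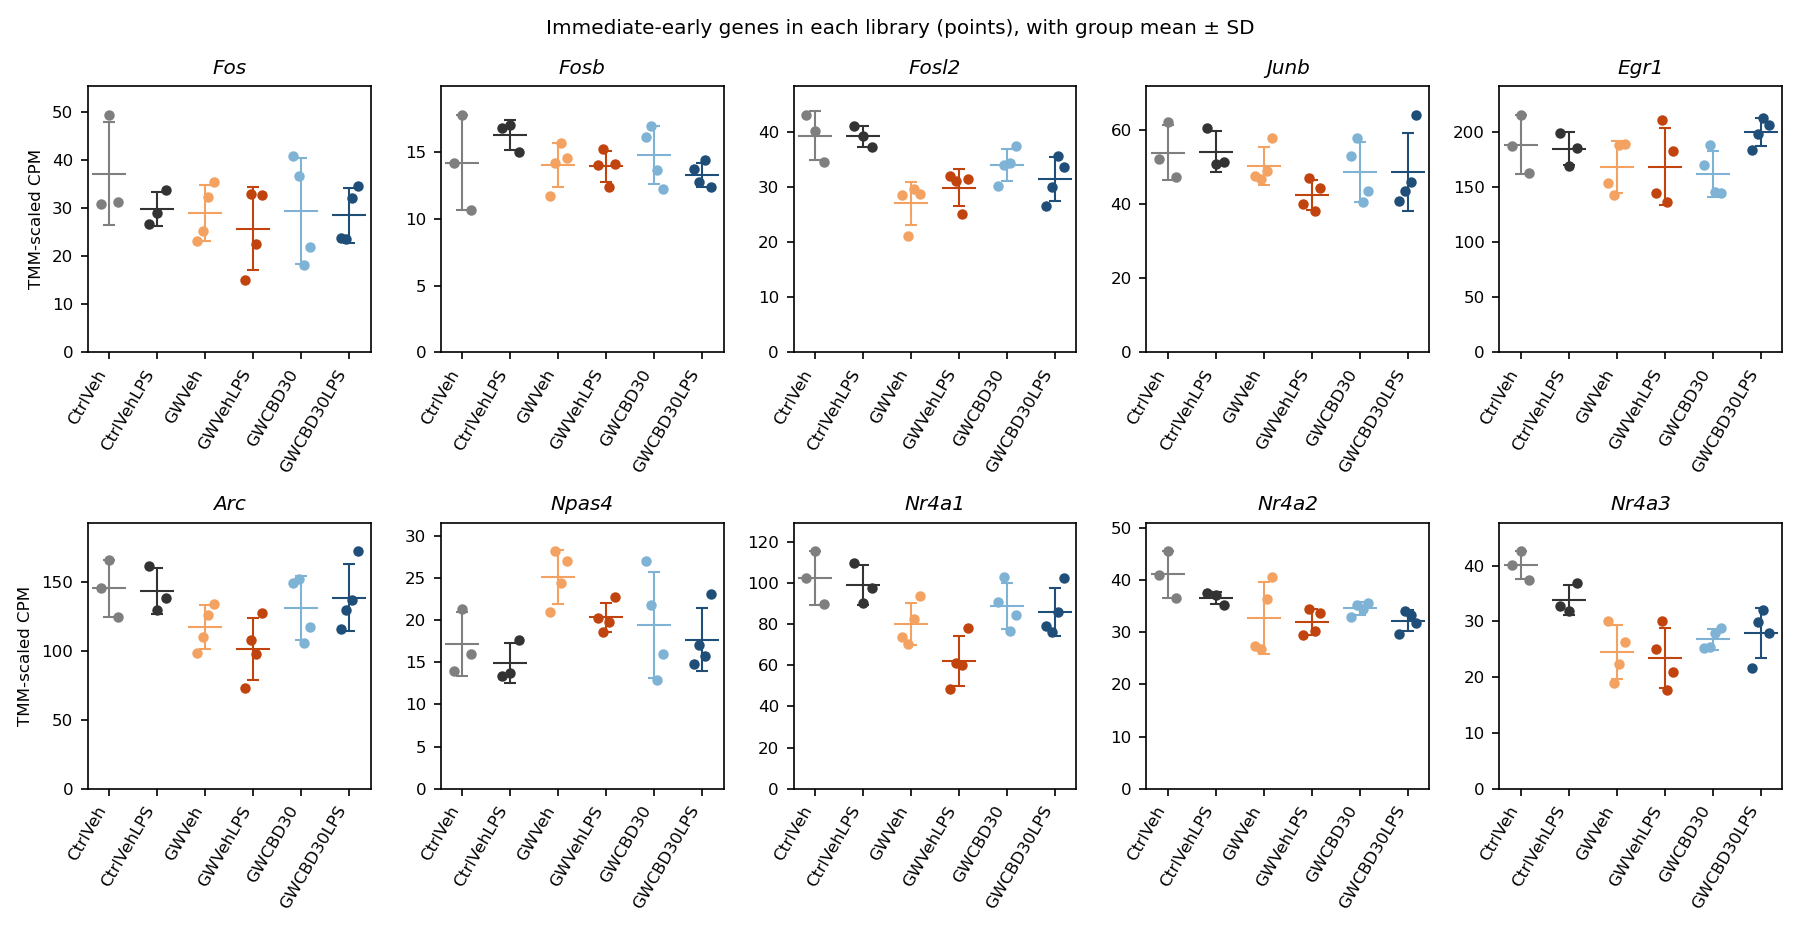
Each panel shows 1 gene, with the TMM-scaled CPM of each of the 22 libraries as points on an axis from 0 and the group mean ± SD as bars. In the Fosl2 and Nr4a3 panels all 8 exposed vehicle libraries (GWVeh and GWVehLPS) lie below all 6 control libraries. Within LPS states, 4.59% of all genes without LPS and 2.57% under LPS were separated in that direction. The share over both states together was not counted. In the Fos panel the groups overlap throughout.

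Chemical exposure was compared with control in the vehicle arms, without LPS, under LPS, and as the mean of both comparisons. Over both LPS states 2 of the 10 members were lower in exposed mice, Fosl2 and Nr4a3, and none was higher. Among all genes tested 6 of 20026 genes passed in that comparison (0.03%), 5 of them lower (0.025%). The members were chosen with earlier results of these data known, so this share is given for scale and is no test of the set. Fosl2 had the smallest p of all genes, and Nr4a3 the sixth. The log2 fold change was negative for 9 members (48.3% of all genes) and positive for Npas4, with a median of -0.27 against 0.01 over all genes tested. An unadjusted p under 0.05 was reached by 7 members and by 7.76% of all genes. The members covaried between mice within groups (21 of 45 pairs with r above 0.5, given below), so these counts are not of independent genes.

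Fosl2 encodes Fra-2, the AP-1 subunit that is induced later and stays longer than Fos (chr5:32135801-32157842, plus strand, GRCm38). It was read at 43.2, 40.3 and 34.5 CPM in CtrlVeh and at 41.1, 39.3 and 37.3 CPM in CtrlVehLPS. In GWVeh it was read at 28.6, 21.1, 29.7 and 28.8 CPM and in GWVehLPS at 32.1, 31.1, 25.1 and 31.5 CPM. Every exposed vehicle library was below every control library, with and without LPS. Groups did not overlap in that direction for 4.59% of all genes without LPS and 2.57% under LPS. The share over both states together was not counted. Fosl2 was lower by exposure over both LPS states, with a log2 fold change of -0.46 ± 0.08 (SE, edgeR quasi-likelihood test, adjusted p = 0.0220), a ratio of 0.725 (95% confidence interval 0.650 to 0.809). Without LPS the value was -0.53 ± 0.11 (adjusted p = 0.174) and under LPS -0.39 ± 0.11 (adjusted p = 0.351, edgeR).

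Nr4a3, also called NOR-1, is an orphan receptor that can act in place of its relatives Nr4a1 and Nr4a2 (chr4:48045153-48086447, plus strand, GRCm38). It was read at 40.2, 42.6 and 37.5 CPM in CtrlVeh and at 32.7, 31.8 and 36.9 CPM in CtrlVehLPS. Exposed libraries gave 30.1, 18.9, 22.5 and 26.4 CPM in GWVeh and 25.1, 30.2, 17.7 and 20.97 CPM in GWVehLPS. All 8 were below all 6 controls, and the share of all genes with such a separation was not counted. The log2 fold change over both LPS states was -0.62 ± 0.11 (SE, edgeR adjusted p = 0.0499), a ratio of 0.652 (95% interval 0.557 to 0.765), and the adjusted p lies at the threshold of 0.05. It was -0.71 ± 0.16 without LPS (adjusted p = 0.317) and -0.52 ± 0.16 under LPS (adjusted p = 0.428, edgeR).

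Neither call was held by every set of libraries. Fosl2 passed in 21 of 26 alternative fits, in which its log2 fold change ran from -0.51 to -0.37, and its adjusted p was 0.0782 without CtrlVeh replicate 1, 0.136 without CtrlVeh replicate 2 and 0.109 without CtrlVehLPS replicate 2. Nr4a3 passed in 10 of 26, with log2 fold changes from -0.69 to -0.56. Of the 14 fits that left out 1 library, it passed in 3, those without GWVeh replicate 1 (adjusted p = 0.0167), GWVehLPS replicate 2 (0.0124) or GWVehLPS replicate 3 (0.0330), and in the other 11 its adjusted p ran from 0.0539 to 0.233. Without CtrlVehLPS replicate 1, the library that stood apart, Fosl2 was at -0.44 (adjusted p = 0.0342) and Nr4a3 at -0.63 (adjusted p = 0.202, edgeR). In the same fit Nr4a1 was at -0.48 (adjusted p = 0.481), Nr4a2 at -0.25, Arc at -0.35, Junb at -0.18, Egr1 at -0.12, Fos at -0.32, Fosb at -0.11 and Npas4 at 0.46, and 5 genes in all passed. The direction of Fosl2 and Nr4a3 was negative in every one of the 26 fits.

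Nr4a1, or Nur77, was first known as a gene induced by nerve growth factor. It was read at 102, 115 and 89.6 CPM in CtrlVeh, at 110, 90.3 and 97.7 CPM in CtrlVehLPS, at 74.0, 70.3, 82.4 and 93.5 CPM in GWVeh and at 48.6, 61.3, 60.3 and 78.3 CPM in GWVehLPS. The groups overlapped without LPS, where 1 exposed library reached 93.5 CPM, and did not overlap under LPS. The log2 fold change was -0.35 ± 0.15 without LPS (adjusted p = 0.516), -0.68 ± 0.15 under LPS (adjusted p = 0.168) and -0.52 ± 0.10 over both (adjusted p = 0.159, edgeR). It missed the threshold in this fit and passed it in 4 of 26 alternatives, among them the fit without GWVehLPS replicate 4 (adjusted p = 0.0179) and DESeq2 (adjusted p = 9.14e-05), the tool by which Fosl2 had the same adjusted p and Nr4a3 had 3.77e-05. Under LPS alone it also passed without GWVehLPS replicate 4 (adjusted p = 0.0394).

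Nr4a2, or Nurr1, needed for midbrain dopamine neurons, had means of 41.1 ± 4.46 CPM in CtrlVeh, 36.6 ± 1.19 in CtrlVehLPS, 32.7 ± 6.82 in GWVeh and 32.0 ± 2.44 in GWVehLPS (SD). Its log2 fold change over both LPS states was -0.26 ± 0.07 (adjusted p = 0.398, edgeR), and its groups overlapped without LPS and not under LPS. It passed in 2 of 26 alternatives, limma voom (-0.33, adjusted p = 0.0309) and the fit with no filter on low counts (adjusted p = 0.0376, edgeR).

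Arc was read at 145, 166 and 125 CPM in CtrlVeh, at 162, 130 and 138 CPM in CtrlVehLPS, at 98.5, 110, 126 and 134 CPM in GWVeh and at 73.3, 108, 97.9 and 127 CPM in GWVehLPS. The exposed and control values overlapped without LPS, and under LPS the highest exposed library lay just below the lowest control. The log2 fold change over both states was -0.40 ± 0.13 (adjusted p = 0.581, edgeR).

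Npas4 stood on the other side of 0. It was read at 14.0, 21.35 and 15.99 CPM in CtrlVeh, at 13.4, 13.7 and 17.6 CPM in CtrlVehLPS, at 20.9, 28.2, 24.4 and 27.0 CPM in GWVeh and at 20.3, 18.6, 19.8 and 22.7 CPM in GWVehLPS. Under LPS all 4 exposed libraries were above all 3 controls, and without LPS 1 control library reached into the exposed range. Its log2 fold change was 0.50 ± 0.15 over both LPS states, which did not pass the threshold (adjusted p = 0.553, edgeR), and it was positive in each of the 26 alternative fits, from 0.44 to 0.60.

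Of the remaining members, Egr1, Fos and Fosb overlapped between exposed and control mice in both LPS states. Junb had means of 54.0 ± 7.46 CPM in CtrlVeh, 54.3 ± 5.46 in CtrlVehLPS, 50.4 ± 5.16 in GWVeh and 42.5 ± 4.07 in GWVehLPS, without overlap under LPS. Its log2 fold change over both LPS states was -0.23 ± 0.10 (adjusted p = 0.631, edgeR). In GRCm38 Junb overlaps Prdx2 on the opposite strand, and the strand setting of the counting is not given in the sources used here. Egr1 had means of 188 ± 26.6, 185 ± 15.1, 168 ± 23.7 and 168 ± 34.7 CPM in the same order, with a log2 fold change of -0.15 ± 0.10. Fos had 37.2 ± 10.6, 29.8 ± 3.57, 29.0 ± 5.81 and 25.7 ± 8.64 CPM (log2 fold change -0.28 ± 0.22), and its 95% interval of -0.74 to 0.17 was the widest of the set. Fosb had 14.2 ± 3.58, 16.3 ± 1.11, 14.0 ± 1.67 and 13.9 ± 1.17 CPM (log2 fold change -0.12 ± 0.09).

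**Figure D2:**
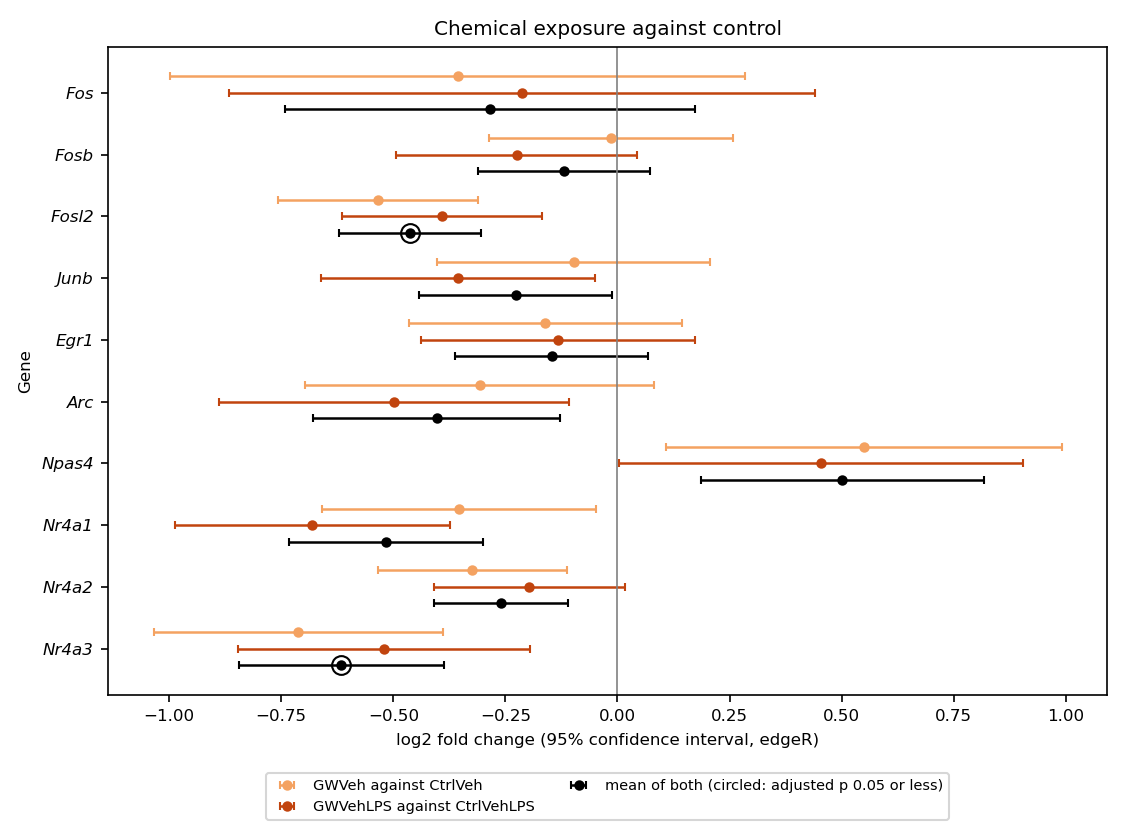
Points are log2 fold changes of exposed against control vehicle mice for each gene, without LPS, under LPS and as the mean of both, and bars are 95% confidence intervals from edgeR. The mean of both is negative for 9 genes and positive for Npas4, and the 2 circled values, Fosl2 (-0.46) and Nr4a3 (-0.62), have an adjusted p of 0.05 or less.

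In the comparison without LPS no member passed the threshold, and none of the 20026 genes did (0%). By unadjusted p under 0.05, 5 members and 8.8% of all genes were below it. DESeq2 called 2 members there, among 6 of 20022 genes, and limma voom 3, among 176 of 20026 genes. Groups did not overlap for 2 members, Fosl2 and Nr4a3, both below, as for 4.59% of all genes in that direction. Under LPS no member passed and 1 of all genes did, Sox9 (0.00499%). An unadjusted p under 0.05 was reached by 6 members and 7.73% of all genes, and DESeq2 called 1 member, among 25 of 20022 genes. Groups did not overlap for 6 members whose exposed values lay below (Fosl2, Junb, Arc, Nr4a1, Nr4a2 and Nr4a3, against 2.57% of all genes) and for 1 that lay above (Npas4, against 2.84% of all genes). Since the members covaried within groups, these are not counts of independent genes. Without CtrlVehLPS replicate 1, Nr4a1 was at -0.60 under LPS (adjusted p = 0.999), Fosl2 at -0.35, Nr4a3 at -0.54 and Arc at -0.40, and 0 genes passed. A difference in the effect of exposure between the LPS states was tested as an interaction. No member passed, and no gene of the table did (0%). At an unadjusted p under 0.05 there were 0 members and 8.43% of all genes. DESeq2 called 0 members and 28 of the 2555 genes to which it gave an adjusted p. The largest such difference was that of Nr4a1, -0.33 ± 0.21 (95% interval -0.76 to 0.11).

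Markers of other tissues moved in part with exposure. All 5 choroid plexus markers had positive log2 fold changes over both LPS states (median 0.37) and none passed the threshold, and their summed level was 273 to 646 CPM in the control libraries and 410 to 748 CPM in the exposed vehicle libraries. Of 7 endothelial markers, only Cldn5, a tight junction gene, was called, and it was higher (log2 fold change 0.53, adjusted p = 0.0220, edgeR). The mean log2 CPM of the 7 was 3.68 in CtrlVeh and 3.67 in GWVeh, and 3.86 in CtrlVehLPS and 4.17 in GWVehLPS. The 8 pan-neuronal markers had a median of 0.02, with 0 past the threshold. Of the regional neuron markers none passed: the median was -0.49 for olfactory bulb (8 of 10 negative), 0.27 for cerebellum (9 of 9 positive) and -0.05 for striatum (6 of 8 negative). Without LPS the levels of the first 2 lists differed in the opposite direction. The mean log2 CPM of cerebellar markers was 6.56 in CtrlVeh and 6.26 in GWVeh, and that of olfactory bulb markers 0.82 and 1.04. In CtrlVehLPS the cerebellar value was 4.52 (SD 3.10). Brainstem markers had a mean log2 CPM of 2.07 (SD 0.72) in CtrlVeh and 2.66 (SD 1.09) in GWVeh. Under LPS they were at 3.06 in CtrlVehLPS and 3.35 in GWVehLPS. Cortical and hippocampal markers were at 5.85 in CtrlVeh, 5.86 in GWVeh, 5.87 in CtrlVehLPS and 5.76 in GWVehLPS. Those of the dentate gyrus were at 3.45, 3.53, 3.41 and 3.45 in the same order. Under LPS, the state in which 6 members lay below without overlap, olfactory bulb markers had a median of -1.17 (10 of 10 negative, 7 with an unadjusted p under 0.05), cerebellar markers 0.87 (9 of 9 positive), choroid plexus markers 0.58 (5 of 5 with an unadjusted p under 0.05) and striatal markers -0.16 (8 of 8 negative). CtrlVehLPS replicate 1 had the lowest cerebellar and choroid plexus sums and the highest olfactory bulb sum of the 7 vehicle libraries given LPS. With the choroid plexus level as a covariate, Fosl2 was at -0.37 (adjusted p = 0.271) and Nr4a3 at -0.63 (adjusted p = 0.332). Neither passed in that fit, nor did any other gene (0 of 20026). With olfactory bulb and cerebellar levels as covariates Fosl2 and Nr4a3 were at -0.46 (adjusted p = 0.0909) and -0.64 (adjusted p = 0.395, edgeR), and again 0 of 20026 genes passed. With the cortical and hippocampal level as a covariate Fosl2 was at -0.43 (adjusted p = 0.00942) and Nr4a3 at -0.60 (adjusted p = 0.124). With the striatal level both passed, Fosl2 at -0.44 (adjusted p = 0.0242) and Nr4a3 at -0.59 (adjusted p = 0.0468, edgeR). Each of these fits called 6 of 20026 genes.

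The other genes of the pathway were taken from 4 lists. Of 21 tested of 22 other rapid transcription factors, 1 was lower over both LPS states and 0 were higher. This was Per1, a clock gene that CREB also induces, with 113 ± 3.21 CPM in CtrlVeh, 124 ± 6.99 in CtrlVehLPS, 95.6 ± 12.8 in GWVeh and 94.6 ± 7.93 in GWVehLPS. Its log2 fold change was -0.32 ± 0.06 (adjusted p = 0.0298, edgeR). The Per1 call held in 12 of 26 alternatives and in 4 of 14 fits that left out 1 library (CtrlVehLPS replicate 1, GWVeh replicate 1, GWVeh replicate 4 or GWVehLPS replicate 2), with adjusted p from 0.00266 to 0.198 over these 14. None of 13 feedback inhibitors passed, and 10 of the 13 had negative values. Trib1, a pseudokinase, was at -0.29 (adjusted p = 0.462) and Spry4, a Sprouty inhibitor of receptor tyrosine kinase signalling, at -0.29 (adjusted p = 0.558, edgeR). None of 13 later effectors passed. The smallest p among them were those of Scg2, a neuropeptide precursor (0.09, adjusted p = 0.653), and Pcsk1, a prohormone convertase (-0.16, adjusted p = 0.664). None of 29 upstream regulators passed, with Cacna1c, a calcium channel subunit, at -0.10 (adjusted p = 0.648, edgeR). The medians of the 4 lists were -0.09, -0.13, -0.10 and -0.01, against 0.01 over all genes. Cldn5, Arl5b (-0.38), D030047H15Rik (-0.48) and Per1 were the genes called beside Fosl2 and Nr4a3.

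Within single LPS states no gene of the 4 lists passed for exposure. Without LPS the smallest p were those of Klf10 (-0.37) and Atf3 (-1.23) among the rapid factors, Spry4 (-0.42) and Dusp5 (-0.47) among the feedback inhibitors, Bdnf (-0.38) and Pcsk1 (-0.25) among the later effectors, and Mapk3 (0.21) and Camk4 (-0.33) among the upstream regulators, with edgeR adjusted p from 0.440 to 0.567. Under LPS they were those of Per1 (-0.39, adjusted p = 0.101) and Klf10 (-0.32), Sik1 (-0.38) and Trib1 (-0.31), Nptx2 (-0.25) and Nptx1 (0.13), and Cacna1c (-0.21) and Mrtfb (-0.20), in the same order of lists, the other adjusted p running from 0.461 to 0.704 (edgeR).

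LPS was compared with PBS in each of the 3 arms and over all of them, 24 hours after injection. No member passed the threshold in any of the 4 comparisons. Among all genes 0.494% of genes passed in control mice, 0.939% in exposed vehicle mice, 0.00499% in exposed CBD mice (1 gene, Tsc22d3) and 3.52% over the 3 arms. An unadjusted p under 0.05 was reached by 0, 1, 1 and 0 members, and by 12.2%, 10.4%, 8.22% and 17.8% of all genes. Neither DESeq2 nor limma voom called a member in these comparisons. Over the 3 arms DESeq2 called 1061 of 16527 genes and limma voom 1463 of 20026. The log2 fold changes ran from -0.32 (Fos) to 0.20 (Fosb) in controls, from -0.37 (Nr4a1) to 0.14 (Fosl2) in exposed vehicle mice and from -0.15 (Npas4) to 0.30 (Egr1) in exposed CBD mice. The median log2 fold change of the members over the 3 arms was -0.08, against -0.01 over all genes.

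The intervals over the 3 arms bound the mean effect of LPS over these arms, and not its size in a single arm. For Fosl2 the log2 fold change was 0.01, with a 95% interval from -0.11 to 0.14, for Fosb 0.01 (-0.14 to 0.17), for Egr1 0.09 (-0.08 to 0.26) and for Nr4a3 -0.08 (-0.27 to 0.10). The widest interval was that of Fos, -0.19 (-0.55 to 0.18). Arc was at -0.05 (-0.27 to 0.17), Junb at -0.08 (-0.25 to 0.09), Nr4a2 at -0.10 (-0.22 to 0.02), Nr4a1 at -0.15 (-0.33 to 0.02) and Npas4 at -0.22 (-0.47 to 0.03). The unadjusted p under 0.05 belonged to Nr4a1 in exposed vehicle mice, with -0.37 ± 0.14 (adjusted p = 0.299), and to Egr1 in exposed CBD mice, with 0.30 ± 0.14 (adjusted p = 0.574, edgeR). Both of these single-arm values lay outside the interval of the same gene over the 3 arms. Egr1 was read at 170, 188, 146 and 144 CPM in GWCBD30 and at 183, 198, 213 and 206 CPM in GWCBD30LPS, and 1 PBS library lay inside the LPS range. In controls the values of Nr4a3 did not overlap between PBS and LPS and lay lower with LPS (-0.25 ± 0.17, adjusted p = 0.588), as for 8.13% of all genes in that direction. Without CtrlVehLPS replicate 1 Nr4a3 was at -0.22 ± 0.20 in controls, where the members ran from -0.25 (Fos) to 0.18 (Fosb). Over the 3 arms they then ran from -0.20 (Npas4) to 0.07 (Egr1), and no member passed in either comparison.

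**Figure D3:**
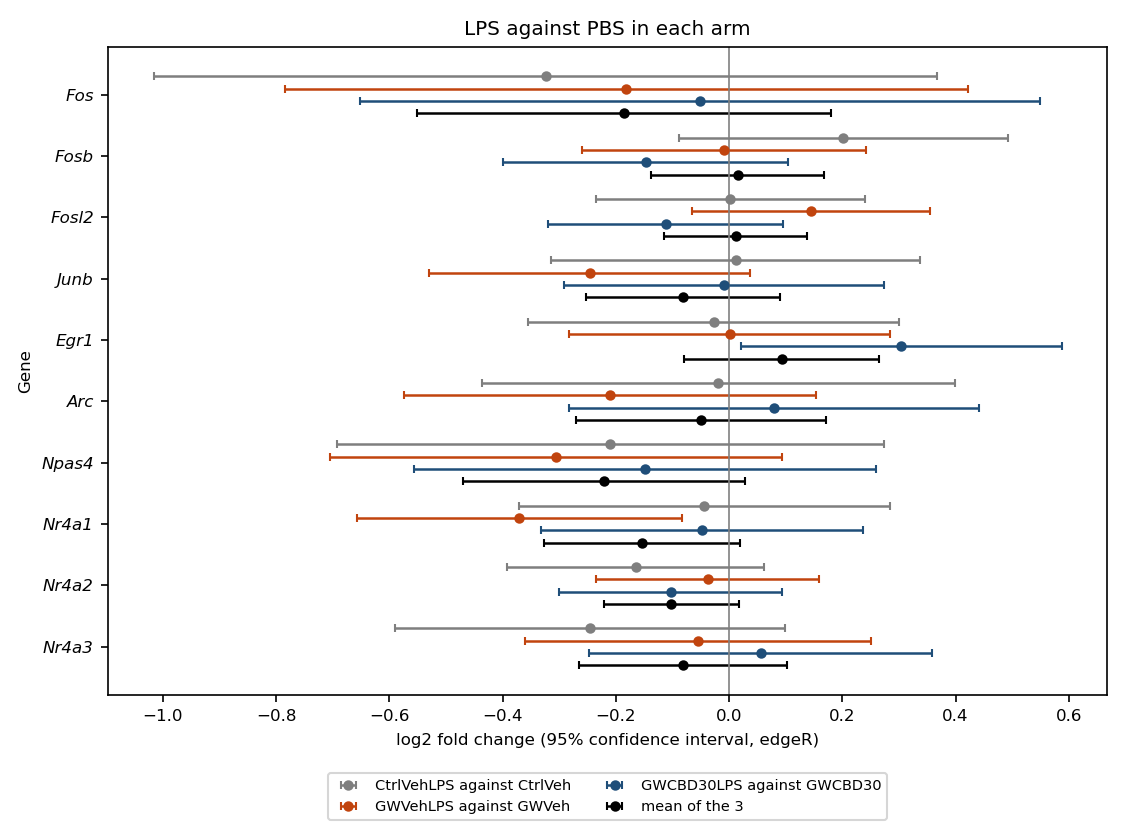
Points are log2 fold changes of LPS against PBS for each gene in control, exposed vehicle and exposed CBD mice and as the mean of the 3, and bars are 95% confidence intervals from edgeR. The mean of the 3 lies between -0.22 (Npas4) and 0.09 (Egr1), and each of its intervals includes 0.

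Of the pathway lists, 0 of 21 other rapid transcription factors and 0 of 13 later effectors passed over the 3 arms, 1 of 13 feedback inhibitors was higher, and 2 of 29 upstream regulators were higher. The feedback inhibitor was Zfp36 (tristetraprolin), which destabilises immediate-early and cytokine mRNAs. It had 2.93 ± 0.341 CPM in CtrlVeh and 4.04 ± 0.409 in CtrlVehLPS, 3.47 ± 0.787 in GWVeh and 5.18 ± 0.581 in GWVehLPS, and 2.94 ± 0.792 in GWCBD30 and 3.25 ± 0.346 in GWCBD30LPS. The Zfp36 log2 fold change over the 3 arms was 0.40 ± 0.12 (adjusted p = 0.0466, edgeR), and the call held in 13 of 33 alternatives, 4 of them among the 22 that left out 1 library (GWVeh replicate 2, GWVehLPS replicate 4, GWCBD30 replicate 3 or GWCBD30LPS replicate 4), with adjusted p from 0.0225 to 0.111 over these 22. The upstream regulators were Ntrk2, the BDNF receptor TrkB (0.16 ± 0.03, adjusted p = 0.00173), and Camk2a, a calcium-dependent kinase of synapses (0.18 ± 0.04, adjusted p = 0.00717), and both passed in all 33 alternatives. Among the rapid factors the smallest p were those of Bhlhe40 (0.13, adjusted p = 0.0782) and Klf10 (-0.20, adjusted p = 0.0935), and among the later effectors those of Sorcs3 (-0.08, adjusted p = 0.293) and Scg2 (0.05, adjusted p = 0.523, edgeR).

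In the single arms no gene of the 4 lists passed. Ntrk2 was at 0.24 (adjusted p = 0.0652) and Camk2a at 0.29 (adjusted p = 0.0760) in controls. Zfp36 was at 0.47 in controls (adjusted p = 0.385) and at 0.58 in exposed vehicle mice (adjusted p = 0.146), where Atf3, a stress-induced factor, was at 1.03 (adjusted p = 0.259). Crem (-0.35), Klf10 (-0.26), Dusp5 (-0.28), Nptx1 (-0.13) and Bdnf (-0.32) had the other smallest p in controls, and Klf4 (0.62), Spry2 (0.22), Nptx2 (-0.27), Sorcs3 (-0.13), Grin2b (-0.27) and Ntrk2 (0.14) in exposed vehicle mice. In exposed CBD mice these were Jun (-0.19), Spry2 (0.15), Spry4 (0.17), Scg2 (0.11), Nptx2 (0.16) and Prkaca (0.15), while Camk2a was at 0.19 (adjusted p = 0.418) and Bhlhe40 at 0.18 (adjusted p = 0.463, edgeR).

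CBD was compared with vehicle in exposed mice. No member passed the threshold without LPS, under LPS or over both states, where 0%, 0.24% and 0% of all genes passed. An unadjusted p under 0.05 was reached by 1, 2 and 4 members, and by 6.43%, 7.1% and 8.35% of all genes. DESeq2 called 1 member under LPS, among 108 of 20022 genes, and 0 members in the other comparisons of CBD. Limma voom called 0 members, and 158 of 20026 genes under LPS. Over both LPS states 9 members had positive log2 fold changes (50% of all genes) and Npas4 a negative one, with a median of 0.09 against 4.84e-05 over all genes. These values share the GWVeh and GWVehLPS libraries with the exposure comparisons, so the opposite signs of the 2 sets of values are not independent.

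Nr4a1 was the member with the smallest p over both LPS states. It was read at 90.9, 103, 76.9 and 84.3 CPM in GWCBD30 and at 79.1, 76.2, 85.9 and 103 CPM in GWCBD30LPS, against the GWVeh and GWVehLPS values given above. With and without LPS its CBD and vehicle values overlapped. The log2 fold change was 0.15 ± 0.14 without LPS (adjusted p = 0.848) and 0.47 ± 0.14 under LPS (adjusted p = 0.274, edgeR), and DESeq2 gave an adjusted p of 0.0252 under LPS, the 1 call named above. Arc was read at 149, 152, 105 and 117 CPM in GWCBD30 and at 116, 130, 137 and 172 CPM in GWCBD30LPS. Its log2 fold change was 0.16 ± 0.17 without LPS and 0.45 ± 0.17 under LPS (adjusted p = 0.547, edgeR), and its groups overlapped in both states.

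Fosl2 was read at 30.3, 34.1, 34.4 and 37.4 CPM in GWCBD30, each above the 4 GWVeh libraries (as for 1.84% of all genes), and at 26.7, 30.0, 35.7 and 33.7 CPM in GWCBD30LPS, which overlapped with GWVehLPS. The log2 fold change was 0.33 ± 0.10 without LPS (adjusted p = 0.752) and 0.07 ± 0.10 under LPS (adjusted p = 0.956, edgeR). Nr4a3 was read at 25.2, 25.3, 27.9 and 28.9 CPM in GWCBD30 and at 21.7, 30.0, 32.1 and 27.8 CPM in GWCBD30LPS, inside or near the range of the exposed vehicle mice, with log2 fold changes of 0.13 ± 0.15 without LPS and 0.24 ± 0.15 under LPS. Npas4 was read at 27.0, 21.8, 12.9 and 15.996 CPM in GWCBD30, which spans both the control and the exposed vehicle values, and at 14.8, 17.0, 15.8 and 23.1 CPM in GWCBD30LPS. Its log2 fold change over both states was -0.29 ± 0.14 (adjusted p = 0.590, edgeR). For Nr4a2 and Fosb the values over both states were 0.04 and 0.01, with 95% intervals from -0.09 to 0.18 and from -0.17 to 0.18. Those of Fos, Junb and Egr1 were 0.08, 0.07 and 0.10.

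**Figure D4:**
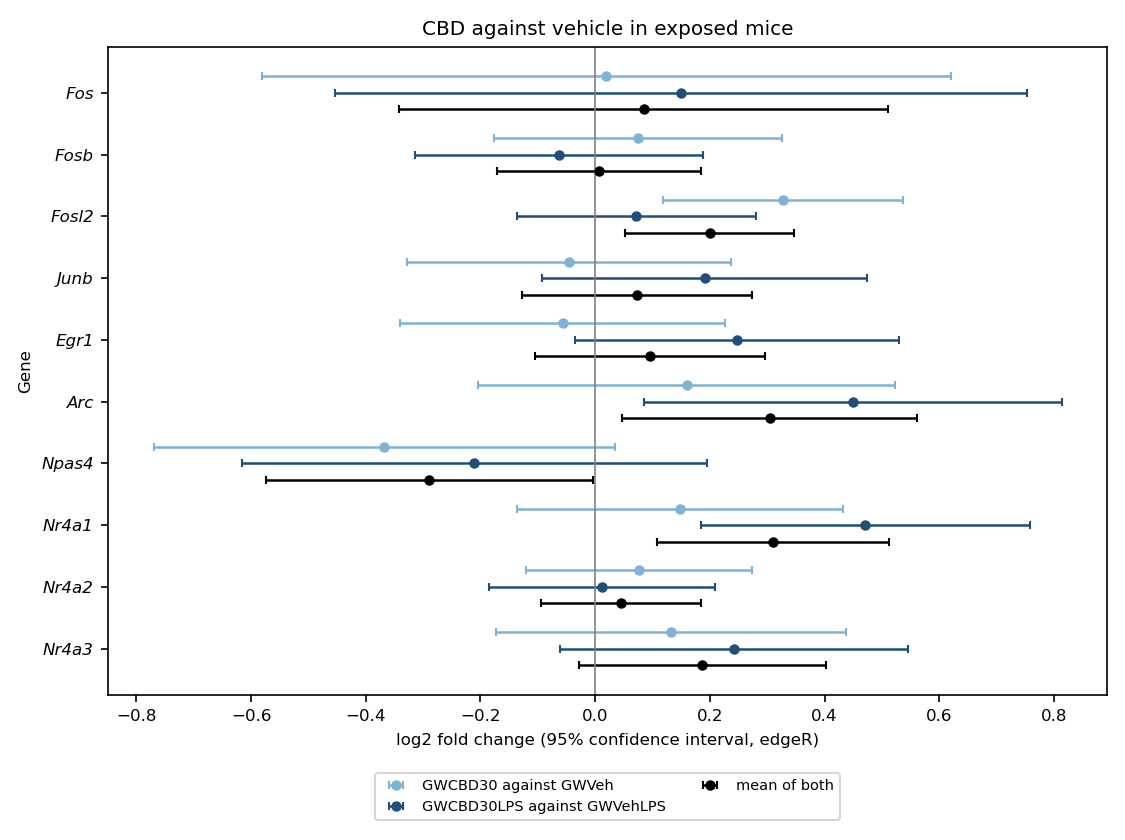
Points are log2 fold changes of CBD against vehicle in exposed mice for each gene, without LPS, under LPS and as the mean of both, and bars are 95% confidence intervals from edgeR. The mean of both is positive for 9 genes, from 0.01 (Fosb) to 0.31 (Nr4a1), and -0.29 for Npas4, and none passed the threshold.

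A difference in the effect of CBD between the LPS states was not called for any member, against 0.0449% of all genes. At an unadjusted p under 0.05 there were 0 members and 5.69% of all genes, and DESeq2 called 0 members and 24 of 20022 genes. The largest differences were those of Nr4a1 (0.32 ± 0.19) and Egr1 (0.30 ± 0.19) and, on the negative side, Fosl2 (-0.26 ± 0.14). When exposed CBD mice were set against unexposed controls over both LPS states, a comparison added after the data had been seen, no member and no other gene passed (0%). At an unadjusted p under 0.05 there were 3 members and 4.26% of all genes, and limma voom called 1 member, among 42 of 20026 genes. Nr4a3 was at -0.43 ± 0.11 (95% interval -0.66 to -0.20, adjusted p = 0.845), Fosl2 at -0.26 ± 0.08 (-0.42 to -0.11, adjusted p = 0.892) and Nr4a2 at -0.22 ± 0.07 (-0.37 to -0.07, adjusted p = 0.997, edgeR). Egr1 (-0.05 ± 0.10) and Arc (-0.10 ± 0.13) were nearer to 0. For Fosl2, 2 of the 8 exposed CBD libraries (35.7 and 37.4 CPM) lay above the lowest control (34.5 CPM), and for Nr4a3 the highest of the 8 (32.1 CPM) lay just above the lowest of the 6 controls (31.8 CPM).

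None of the 4 pathway lists had a gene past the threshold for CBD. Under LPS the smallest p were those of Nfil3 (-0.35, adjusted p = 0.376) and Egr3, a relative of Egr1 (0.33, adjusted p = 0.408), among the rapid factors, Zfp36 (-0.67, adjusted p = 0.164) and Sik1 (0.24, adjusted p = 0.744) among the feedback inhibitors, Nptx2, a secreted pentraxin of excitatory synapses (0.40, adjusted p = 0.274), and Sorcs3 (0.13, adjusted p = 0.752) among the later effectors, and the NMDA receptor subunits Grin2b (0.26, adjusted p = 0.371) and Grin2a (0.18, adjusted p = 0.641) among the upstream regulators. Over both LPS states Klf10 was at 0.28 (adjusted p = 0.275, edgeR), with Csrnp1 (0.22), Zfp36 (-0.45), Trib1 (0.19), Nptx2 (0.18), Pcsk1 (0.16), Grin2a (0.17) and Grin2b (0.17) the others of smallest p. Without LPS these were Klf10 (0.25), Jund (-0.20), Trib1 (0.22), Dusp14 (0.20), Scg2 (-0.12), Pcsk1 (0.19), Elk4 (0.26) and Mapk3 (-0.14). Markers of other cells also moved with CBD under LPS: 2 of 9 microglial and 3 of 7 endothelial markers were lower, with medians of -0.30 and -0.31. The summed microglial markers were at 314 to 400 CPM in GWVehLPS and 272 to 304 CPM in GWCBD30LPS, and their part in the values of the members was not tested.

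Within groups the members moved together from mouse to mouse. After group means were removed, the 45 pairs had a median Pearson r of 0.49 over 22 libraries, 40 were above 0 and 21 above 0.5. As a background, the median r of single members with all other tested genes was between -0.01 and 0.00, and 1.19% to 3.48% of genes lay above 0.5 with a given member. These are descriptions, since the libraries share a scaling step and 1 estimate of depth per library.

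The tightest pair was Arc with Nr4a1 (r = 0.94), followed by Fos with Arc (0.87), Junb with Arc (0.83), Junb with Nr4a1 (0.79) and Fos with Nr4a1 (0.79). Egr1 had an r of 0.71 to 0.78 with each of Fos, Junb, Arc and Nr4a1. Fosl2 and Nr4a3 had an r of 0.69 with each other, and Nr4a3 had values of -0.04 with Arc, -0.01 with Nr4a1 and 0.06 with Fos. Fosl2 had 0.09 with Fos and 0.21 with Arc. Npas4 followed Fos (0.71), Junb (0.66) and Arc (0.62), and had -0.20 with Fosl2 and -0.16 with Nr4a3. For both Fosl2 and Nr4a3, Npas4 was the member with the lowest r.

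**Figure D5:**
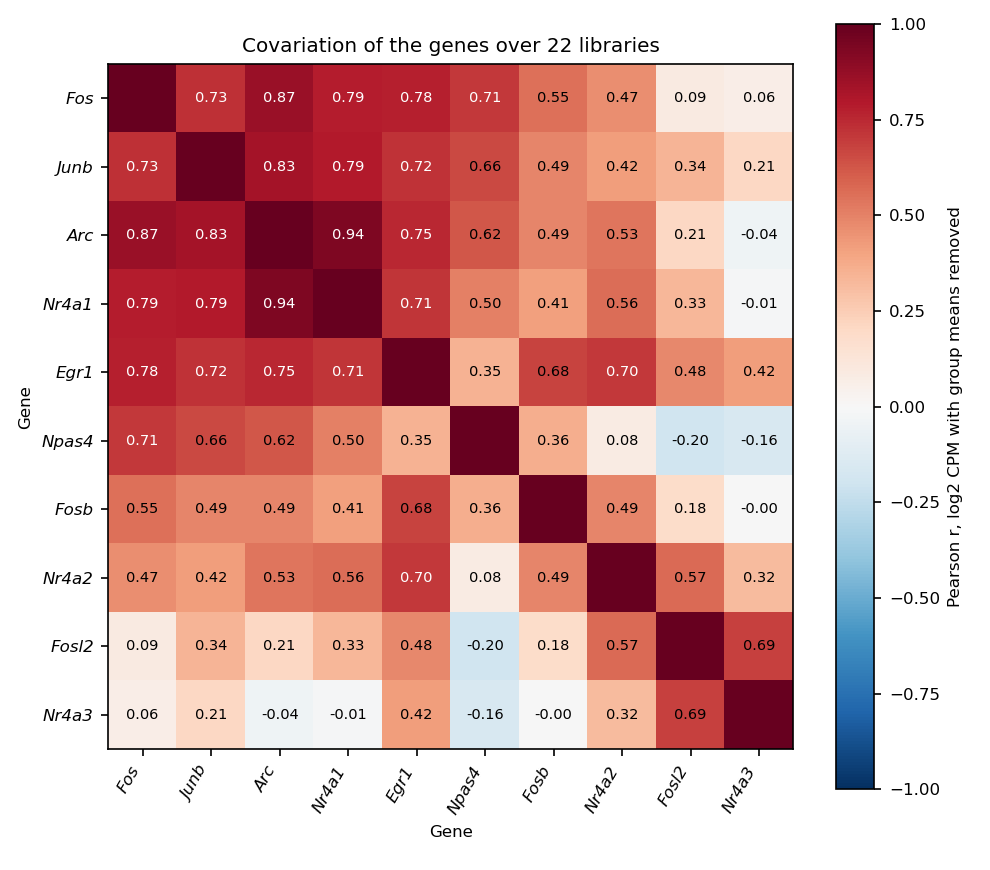
Each cell gives the Pearson r of log2 CPM between 2 genes over 22 libraries after group means were removed, on a scale from -1 (blue) to 1 (red). Fos, Junb, Arc, Nr4a1 and Egr1 form a block with r from 0.71 to 0.94, and Fosl2 with Nr4a3 (0.69) stands beside it.

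Genes outside the set that followed it most closely were found by their mean r with the 10 members. The highest were Ccn1, a matricellular immediate-early gene (0.58), Egr2 (0.57) and Egr4 (0.55), both of the Egr family, Dap3 (0.54), Gm43062 (0.53), Dusp1, a MAPK phosphatase (0.53), Shisa2 (0.52) and Erlin1 (0.51). By single members, Dusp1 was nearest to Nr4a1 (0.89) and Fos (0.84), Ccn1 to Arc (0.86), Btg2 to Npas4 (0.82), Adgrg6 to Nr4a2 (0.79), H1f11-ps to Fosl2 (0.79), Slc23a3 to Egr1 (0.77), Egr4 to Fosb (0.75), Rtl9 to Nr4a3 (0.75) and Arl4d to Junb (0.74). The mean level of the members had an r of 0.76 with that of the other rapid transcription factors, 0.68 with the feedback inhibitors, 0.50 with the later effectors and 0.03 with the upstream regulators. With marker lists it had 0.48 for striatal neurons, -0.44 for choroid plexus, 0.24 for pan-neuronal and -0.09 for cerebellar markers, and with total counts -0.16. By member, the r with choroid plexus markers ran from -0.61 (Nr4a1) to 0.03 (Nr4a3), with -0.48 for Fosl2. With brainstem markers it ran from -0.62 (Nr4a2) to 0.24 (Npas4), with -0.48 for Fosl2 and -0.19 for Nr4a3.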

How the data were processed

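Poly(A)-selected stranded libraries from whole-brain RNA (integrity number 8.5 or more) were read as paired ends of 150 bases, per the labels. The genome build was GRCm38/mm10, per the labels. The deposited values are raw counts for each gene, all whole numbers. The aligner and the counter with its strand setting were not given in the sources used here. All 22 columns matched 1 sample each, and 0 belonged to others. Coordinates and exon lengths came from GENCODE M21 (GRCm38), promoters from RefSeq (GRCm38.p6).

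The model was edgeR 4.0.16 (R 4.3.3) with filterByExpr (20026 genes), TMM scaling and a robust quasi-likelihood model of 6 group means over 22 libraries. It left 16 residual degrees of freedom, and the common biological CV was 10.3%. Tests were two-sided, adjusted by Benjamini-Hochberg over 20026 genes, with a threshold of 0.05. The SE of a log2 fold change is its absolute value over the root of F. Values over LPS states are means of the contrasts concerned. CPM use TMM-scaled totals, and log2 CPM a prior count of 2. The fit was run on simulated counts for exposure over both LPS states only. That simulation had the same spread for all genes and no outlying library, so it does not cover the spread of single members. No UMIs are mentioned, so counts are reads.

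The members, lists and tests were chosen with earlier results of these data known. All 10 members are described in every comparison, by their range where they are not printed singly. Of the 4 pathway lists, the genes past the threshold are named, or else the 2 with the smallest p and an average log2 CPM of at least 0. For the interactions and for exposed CBD mice against controls, the genes of these lists are not printed, and none passed. A gene that the rule names is not reported here. Genes alike are the 8 with the largest mean r and the nearest for each member.

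Same-numbered samples did not deviate together: of 25 pairs 1 had a correlation over 0.1 (range -0.06 to 0.13), so the replicate number was used as an alternative only. Alternatives were RLE and upper-quartile scaling, no filter, a stricter filter (1 CPM in 3 libraries), the groups of a contrast alone, DESeq2 1.42.0, limma 3.58.1 (voom with quality weights), marker levels as covariates, and each library left out. Striatal and choroid plexus covariates and the comparison of exposed CBD mice with controls were added after seeing the data.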

Additional observations from a re-analysis of the deposited data

Results flagged for a closer look

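In each group of 4 libraries the highest and lowest value of each member was compared with the rest by the gap to its neighbour over the group's range, against Dixon's 95% limit. Of 40 such groups 2 held a library beyond it, both for Fosl2. Chance alone gives about 1 in 20, so this count is no excess. Fosl2 in GWVeh replicate 2 was at 21.1 CPM, below the other 3 libraries at 28.6 to 29.7 CPM, with a ratio of 0.875. Fosl2 in GWVehLPS replicate 3 was at 25.1 CPM, below the other 3 at 31.1 to 32.1 CPM, with a ratio of 0.853. Without GWVeh replicate 2 the log2 fold change of Fosl2 by exposure over both LPS states was -0.41 (edgeR adjusted p = 0.0462), and without GWVehLPS replicate 3 it was -0.43 (adjusted p = 0.0330). No interaction was called for a member.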

How the results depend on the processing

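The direction of all values of the 10 members and of the named pathway genes was followed over 5395 alternative values of 232 results: 5122 kept their direction and their side of the threshold, 55 lost and 61 gained a call, and 4 reversed. A further 153 changed sign from a value within 1 SE of 0. The reversals were of Junb in the interaction of exposure and LPS (0.023 with olfactory bulb and cerebellar covariates) and of CBD and LPS (-0.0034 with a striatal covariate), and of Nptx1, with olfactory bulb and cerebellar covariates, for LPS in controls (0.013) and for exposure under LPS (-0.0064). The cause was not tested.

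Members called for exposure without LPS numbered 0, but 2 with no filter, 1 with the cortical and hippocampal covariate, 1 with the striatal covariate, 2 with DESeq2 and 3 with limma voom. Among all genes these fits called 36 of 38807, 2 of 20026, 3 of 20026, 6 of 20022 and 176 of 20026, in that order. Under LPS the members called numbered 0, but 3 with no filter and 1 with DESeq2, and 0 to 1 when 1 library was left out. Among all genes no filter called 118 of 38807, DESeq2 25 of 20022, and the fits without 1 library 0 to 24. Over both LPS states the members called numbered 2. With no filter they numbered 4 (44 of 38807 genes called). DESeq2 called 3 (Fosl2, Nr4a1 and Nr4a3, among 19 of 14975 genes) and limma voom 3 (Fosl2, Nr4a2 and Nr4a3, among 23 of 20026 genes). Members called numbered 0 with olfactory bulb and cerebellar covariates (0 genes) and 1 with the cortical and hippocampal covariate (6 genes). They numbered 0 with the choroid plexus covariate (0 genes) and 1 with the groups of the contrast alone (2 of 19451 genes). When 1 library was left out they numbered 0 to 2 (0 to 11 genes), with 0 without CtrlVeh replicate 1, CtrlVeh replicate 2 or CtrlVehLPS replicate 2. For CBD under LPS DESeq2 called 1 member, among 108 of 20022 genes. For exposed CBD mice against controls, no filter, the groups alone and limma voom called 1 member each, among 20 of 38807, 6 of 19444 and 42 of 20026 genes. In the remaining comparisons of LPS, of CBD and of interactions, every alternative called 0 members.

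With the replicate number as a block, 1 member was called for exposure without LPS (9 of 20026 genes), 1 under LPS (9 genes) and 2 over both states (11 genes). Those 2 were Fosl2 (adjusted p = 0.00545) and Nr4a1 (0.0245), while Nr4a3 had 0.124. Of 25 same-numbered pairs 8 had their highest correlation with their own number.

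Counts over all genes moved more than 1.5 times in most comparisons. For exposure over both LPS states 6 genes passed, against 0 to 44 over the alternatives, for LPS over the 3 arms 705, against 436 to 1463, for LPS in controls 99, against 20 to 694, in exposed vehicle mice 188, against 116 to 359, and in exposed CBD mice 1, against 0 to 87. For exposure without LPS 0 genes passed, against 0 to 176, under LPS 1, against 0 to 118, and in its interaction with LPS 0, against 0 to 82. For CBD under LPS 48 passed, against 22 to 158, over both states 0, against 0 to 76, in its interaction with LPS 9, against 1 to 42, and for exposed CBD mice against controls 0, against 0 to 42. The median of all genes moved by at most 0.0134 on the log2 scale, and none of 60 group levels moved by 1 SD with unscaled totals. Each group held 3 or 4 libraries, and the limit that depth sets was not tested.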
